A study of Rattus norvegicus with 16 samples.

Results

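The 9 genes described here encode proteins known from the podocyte surface, its inner face or the basement membrane beneath it, among them antigens of membranous nephropathy: Ptpro, Plce1, Crb2, Npnt, Thsd7a, Pla2r1, Clic5, Mme and Dpp4. In these libraries Pla2r1 did not follow other podocyte genes from rat to rat (Pearson r with their mean level -0.50 as deposited and -0.72 after median-ratio scaling), and the r of Dpp4 was 0.675 and 0.237 under these scalings. The genes were chosen by name, and all 9 were found among the 13222 genes of the deposited table. Their levels were measured by poly(A) RNA sequencing in glomeruli sieved from the kidneys of 16 male Wistar rats of about 175 g, with 4 rats in each of 4 groups, taken on day 11. The groups were healthy control rats, rats injected intravenously with puromycin aminonucleoside (PAN), a toxin that injures podocytes, and PAN rats given pioglitazone or GQ-16 by daily gavage. Pioglitazone is a clinically used agonist of the nuclear receptor PPARγ and GQ-16 is a partial agonist of the same receptor. The labels also name a sham vehicle by gavage without saying which rats received it, and give no dose, litter, batch or pairing of rats. Because each library is a whole sieved preparation, a change in the number of podocytes and a change in RNA per podocyte cannot be told apart.

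Podocytes wrap the glomerular capillaries with interlocking foot processes joined by slit diaphragms, and loss of this architecture lets protein into the urine. Ptpro (GLEPP1) is a receptor tyrosine phosphatase of the podocyte's apical membrane, Plce1 is a phospholipase C that makes second messengers, and Crb2 is a crumbs-family polarity protein found at the slit diaphragm. Inherited loss of any of these causes nephrotic syndrome. Npnt, nephronectin, is a basement membrane ligand of integrin α8β1, which mesangial cells carry. Pla2r1, the M-type phospholipase A2 receptor, and Thsd7a, a thrombospondin-domain membrane protein, are targets of autoantibodies in human membranous nephropathy. Clic5 belongs to the chloride intracellular channel family and links membranes to the cytoskeleton through ezrin. Mme (neprilysin) and Dpp4 are ectopeptidases of podocytes and also of the proximal tubule brush border, and Mme is the antigen of a neonatal form of membranous nephropathy.

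Library totals ran from 13351137 to 21977663 reads, so that 3 reads correspond to between 0.137 and 0.225 reads per 1000000 library reads (CPM). The members were well covered, with between 137 reads (Pla2r1) and 32243 reads (Clic5) in a library. Tubule RNA was present: the proximal tubule gene Gatm ranged from 294.9 to 2617 CPM. The 13 listed mitochondrial genes took from 13.7% to 39.1% of reads in control and from 5.83% to 10.6% in PAN. Values are scaled to the library total. Under this scaling the median gene was 0.28 higher in PAN on the log2 scale, and after median-ratio scaling it was at -0.0032, so the main values are given under both.

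Ptpro, Plce1, Npnt and Crb2 formed the most variable set. In each of them 1 control rat was near the injured rats and the other 3 were far lower, while the highest PAN rat was 1.16 times the lowest in Plce1, 1.60 in Npnt and 1.74 in Ptpro and Crb2. Npnt alone of the 9 members rose at a limma adjusted p under 0.05 in PAN against control, where 22.3% of all genes were called, and it lost the call after median-ratio scaling. None of the 9 separated the 8 rats of this comparison without overlap, and 23.3% of all genes did.

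**Figure D1:**
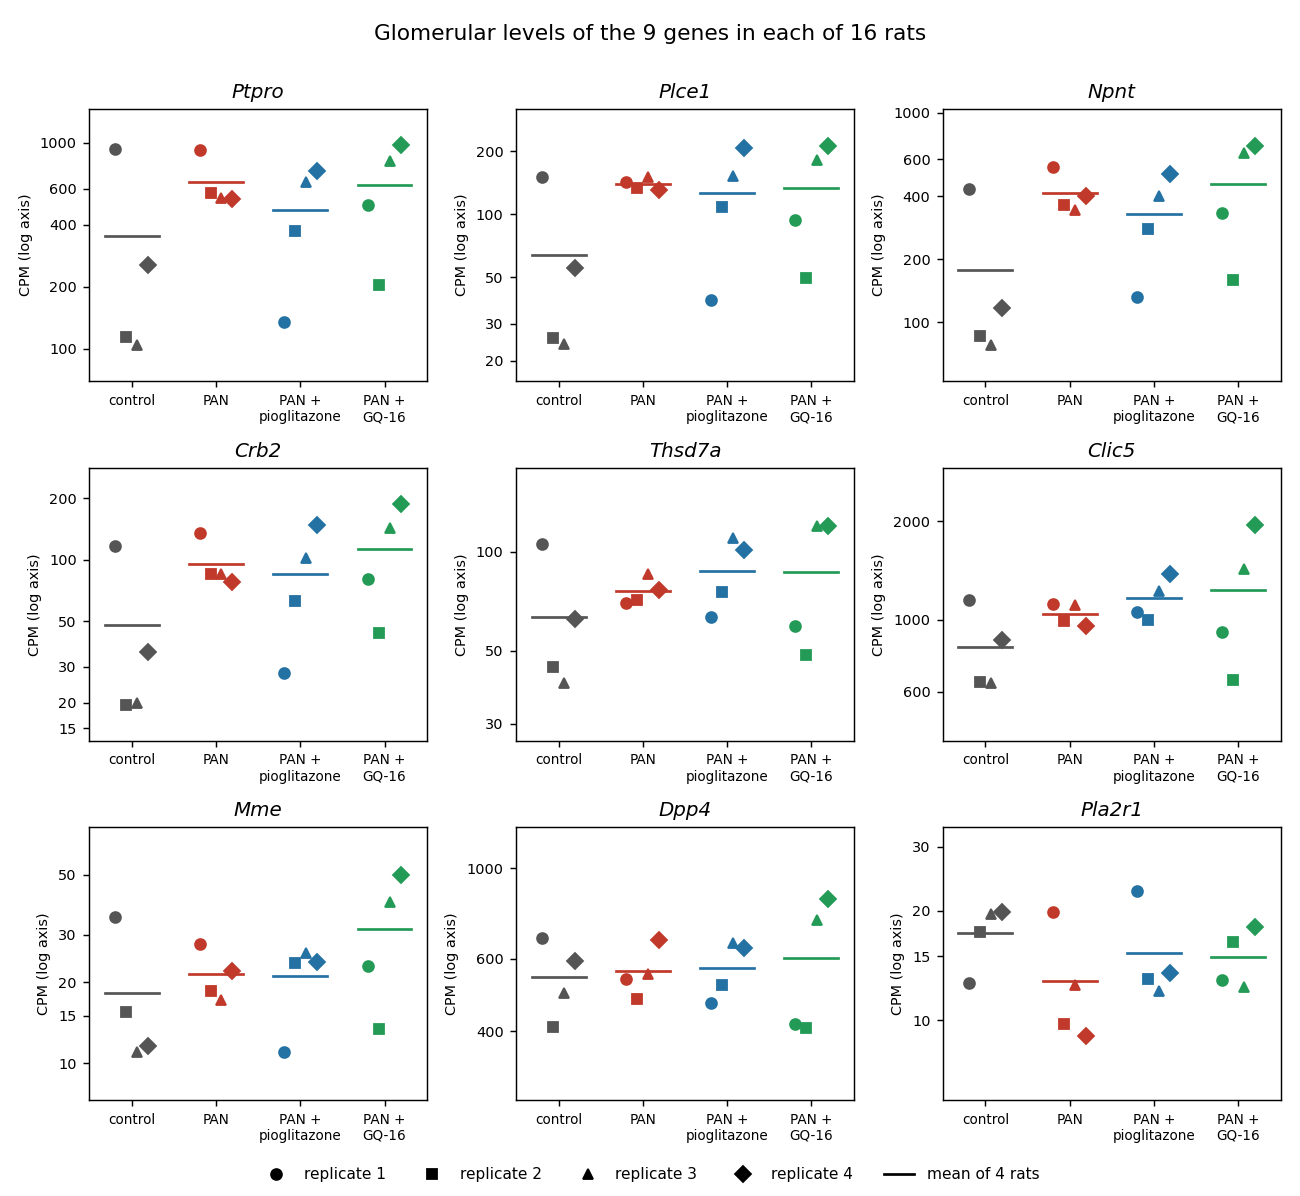
CPM on a log axis for each of the 9 genes in each of 16 rats, with symbols for replicate numbers, which only name the rats of a group, and bars for group means. In the panels of Ptpro, Plce1, Npnt and Crb2, control replicate 1 lies at the level of the PAN rats and the other 3 control rats lie below all of them; in the Pla2r1 panel that rat is the lowest of the controls.

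Ptpro (ENSRNOG00000006231) was 933.8, 114, 104 and 255.6 CPM in control replicates 1 to 4, and 925.5, 570.2, 540.9 and 533 CPM in PAN. It was 135, 374.7, 643 and 728.6 CPM in the pioglitazone rats and 500.0, 203, 819.9 and 974.8 CPM in the GQ-16 rats. Thus 3 control rats were below every PAN rat and the remaining one was above all 4. The mean was 352 ± 394 CPM (SD, n = 4) for controls and 642.5 ± 189 CPM for PAN rats. The log2 change was 1.43 (95% CI 0.036 to 2.82, limma adjusted p 0.111), and 1.13 after median-ratio scaling (limma adjusted p 0.236).

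Plce1 (ENSRNOG00000014276) was 149.7, 25.7, 23.9 and 55.6 CPM in the control rats and 142, 134, 151 and 130.2 CPM in the PAN rats. With treatment it was 39.2, 108, 151 and 207 CPM for pioglitazone and 93.8, 49.8, 180.4 and 212 CPM for GQ-16. The PAN rats spanned a ratio of 1.16 from lowest to highest, against 6.25 in control, 5.29 with pioglitazone and 4.26 with GQ-16. Its log2 change between PAN and control was 1.52 (95% CI 0.31 to 2.73, limma adjusted p 0.0633), and 1.22 after median-ratio scaling (limma adjusted p 0.151).

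Npnt (ENSRNOG00000052873) was 431, 86.3, 78.1 and 116 CPM in control and 552, 364, 344.5 and 401 CPM in PAN. The treated rats held 132, 277.6, 402 and 509 CPM with pioglitazone and 331, 159.6, 645 and 697.5 CPM with GQ-16. Control replicate 1 exceeded 3 of the PAN rats, and the other 3 controls were below all of them. The mean was 178 ± 169.5 CPM (SD, n = 4) for controls and 415 ± 94.0 CPM for PAN rats, and the log2 change was 1.58 (SE 0.543, 95% CI 0.43 to 2.73, limma adjusted p 0.0476). Of all 13222 genes 22.3% passed this test, 21.7% higher and 0.522% lower in PAN, so 1 of 9 members is below the background share. The call of Npnt was lost after median-ratio scaling, with a log2 change of 1.28 and a limma adjusted p of 0.116, where 8.63% of genes passed.

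Crb2 (ENSRNOG00000025498) was 117, 19.6, 19.95 and 35.6 CPM in control and 134.9, 84.9, 85.3 and 77.7 CPM in PAN. Pioglitazone rats had 28.05, 62.9, 102 and 147 CPM, and GQ-16 rats 80.2, 43.9, 143 and 187 CPM. As for Ptpro and Plce1, 1 control rat overlapped the PAN rats. The log2 change in PAN was 1.35 (95% CI 0.15 to 2.56, limma adjusted p 0.0876), and 1.06 after median-ratio scaling (limma adjusted p 0.200).

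These calls turned on single rats. Without control replicate 1, Ptpro, Plce1, Npnt and Crb2 were all called higher in PAN, with log2 changes of 2.10, 2.06, 2.13 and 1.91 and limma adjusted p-values of 0.0140, 0.00986, 0.00541 and 0.0125. In that fit 37.5% of all genes were called. Without control replicate 2, 3 or 4, or without any 1 of the PAN rats, 0 of the 9 members were called, and Npnt had limma adjusted p-values between 0.0632 and 0.162. The share of all genes called was 6.50%, 6.34% and 28.9% without control replicates 2, 3 and 4, and 7.93%, 9.96%, 14.8% and 24.4% without PAN replicates 1 to 4. It also lost its call without pioglitazone replicate 2 or 3 or GQ-16 replicate 1 or 3, which only lend their spread to the test (limma adjusted p between 0.0518 and 0.0605), and 17.7%, 19.8%, 19.8% and 20.2% of genes were called then. Without pioglitazone replicate 1 or GQ-16 replicate 2, Plce1 was called beside Npnt, with limma adjusted p-values of 0.0437 and 0.0493, where 22.2% and 25.5% of genes were called.

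Of the 9 members, 8 were matched by symbol to RefSeq promoters of the GRCr8 assembly, and Plce1 was not. The 250 bases before the start site are shown for Npnt, the gene called in PAN, for Ptpro and Crb2, which moved with it from rat to rat, and for Pla2r1, which did not. Capitals mark GC boxes (GGGCGG, or CCGCCC on the other strand, overlapping matches counted apart). The windows are chr2:224133436-224133685 on the minus strand for Npnt, chr4:171895261-171895510 on the plus strand for Ptpro, chr3:41951650-41951899 on the plus strand for Crb2 and chr3:65422336-65422585 on the minus strand for Pla2r1, each read 5′ to 3′ along the gene.
Npnt: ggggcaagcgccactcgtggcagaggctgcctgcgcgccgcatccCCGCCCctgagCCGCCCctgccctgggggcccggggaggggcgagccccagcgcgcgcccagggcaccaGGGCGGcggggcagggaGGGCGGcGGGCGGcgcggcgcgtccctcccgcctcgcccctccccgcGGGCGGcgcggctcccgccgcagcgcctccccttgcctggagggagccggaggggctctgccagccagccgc
Ptpro: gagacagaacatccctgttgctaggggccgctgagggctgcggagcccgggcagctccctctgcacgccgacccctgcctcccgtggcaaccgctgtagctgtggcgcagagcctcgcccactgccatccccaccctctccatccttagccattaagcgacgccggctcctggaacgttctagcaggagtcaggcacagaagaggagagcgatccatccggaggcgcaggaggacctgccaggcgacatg
Crb2: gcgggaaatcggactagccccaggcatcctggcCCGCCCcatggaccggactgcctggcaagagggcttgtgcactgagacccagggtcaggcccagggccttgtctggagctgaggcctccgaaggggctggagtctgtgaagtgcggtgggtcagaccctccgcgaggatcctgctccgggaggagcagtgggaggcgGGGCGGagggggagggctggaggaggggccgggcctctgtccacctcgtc
Pla2r1: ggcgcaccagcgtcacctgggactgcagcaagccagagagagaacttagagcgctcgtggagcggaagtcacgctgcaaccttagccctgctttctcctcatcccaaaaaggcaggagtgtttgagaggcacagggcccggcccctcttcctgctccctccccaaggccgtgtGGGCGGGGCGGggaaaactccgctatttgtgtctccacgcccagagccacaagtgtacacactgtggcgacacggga
The Npnt window held 6 GC boxes, those of Crb2 and Pla2r1 2 each, and that of Ptpro 0. Mme had 2 and Clic5 1, so that 5 of 8 members held the motif, against 30.5% of 33469 windows of this length. Npnt was 84.0% G or C and Ptpro 66.0%, and the 8 member windows ran from 58.4% (Clic5) to 84.0%, where the median window was 51.2%. The GC box is itself all G and C, and its share was not compared among windows of like G or C content. The letters GCGTGGG, a core of WT1 sites, TAATTA, a core bound by LIM homeodomain factors, and a direct repeat of AGGTCA spaced by 1 base, the PPAR response element, were searched on both strands. They were in 0 of the 8 member windows, and in 3.68%, 4.86% and 0.0508% of all windows. No match says only that these letters are not in these 250 bases.

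Among the antigens, Thsd7a (ENSRNOG00000030151) was 106, 44.7, 40.0 and 62.6 CPM in control and 69.7, 71.4, 86.0 and 76.6 CPM in PAN. The control rat that was high in Ptpro was above every PAN rat here too, and the other 3 were below. The log2 change was 0.36 (95% CI -0.31 to 1.03, limma adjusted p 0.381) and 0.062 after median-ratio scaling. With pioglitazone Thsd7a ranged from 63.5 to 110.1 CPM and with GQ-16 from 48.5 to 120.0 CPM.

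Pla2r1 (ENSRNOG00000008129) ran the other way. It was 12.7, 17.5, 19.6 and 19.8 CPM in control and 19.8, 9.79, 12.5 and 9.06 CPM in PAN, so that 3 PAN rats were below all 4 control rats and PAN replicate 1 was level with the highest of them. Its log2 change was -0.46 (95% CI -0.96 to 0.041, limma adjusted p 0.147) and -0.74 after median-ratio scaling (95% CI -1.32 to -0.17, limma adjusted p 0.1002). With the mean of 21 proximal tubule genes as a covariate the log2 change of Pla2r1 was -0.62 and passed the test (limma adjusted p 0.0247, 25.8% of genes called), and it did not in the other 6 alternatives that kept every rat, where the limma adjusted p ran from 0.1002 to 0.703. Pioglitazone rats had 22.6, 12.97, 12.03 and 13.5 CPM, and GQ-16 rats 12.9, 16.4, 12.3 and 18.05 CPM.

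Clic5 (ENSRNOG00000047218) was 1150, 641.8, 637 and 864.6 CPM in control and 1117, 992, 1107 and 953 CPM in PAN. Control replicate 1 was above all PAN rats and the other 3 below, as for Thsd7a. The log2 change was 0.38 (95% CI -0.22 to 0.98, limma adjusted p 0.301), and 0.078 after median-ratio scaling. Clic5 ranged from 994.5 to 1375 CPM with pioglitazone and from 650.3 to 1943 CPM with GQ-16.

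Of the peptidases, Mme (ENSRNOG00000009514), which cleaves natriuretic peptides and other small peptides, was 34.9, 15.5, 11.0 and 11.6 CPM in control and 27.7, 18.6, 17.2 and 22.05 CPM in PAN. Dpp4 (ENSRNOG00000030763), which trims dipeptides from incretins and chemokines, was 673.8, 410.4, 495.6 and 591.5 CPM in control and 537, 479.9, 552 and 667 CPM in PAN. The Dpp4 range of PAN, 479.9 to 667 CPM, lay within that of control, 410.4 to 673.8 CPM. The log2 change of Mme was 0.35 (95% CI -0.48 to 1.18, limma adjusted p 0.494) and that of Dpp4 0.057 (95% CI -0.44 to 0.56, limma adjusted p 0.860). After median-ratio scaling they were 0.066 and -0.25, so the sign of Dpp4 depended on the scaling. With treatment Mme ranged from 11.0 to 25.7 CPM for pioglitazone and from 13.4 to 49.99 CPM for GQ-16, and Dpp4 from 467.6 to 656.7 and from 407.7 to 837.9 CPM.

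**Figure D2:**
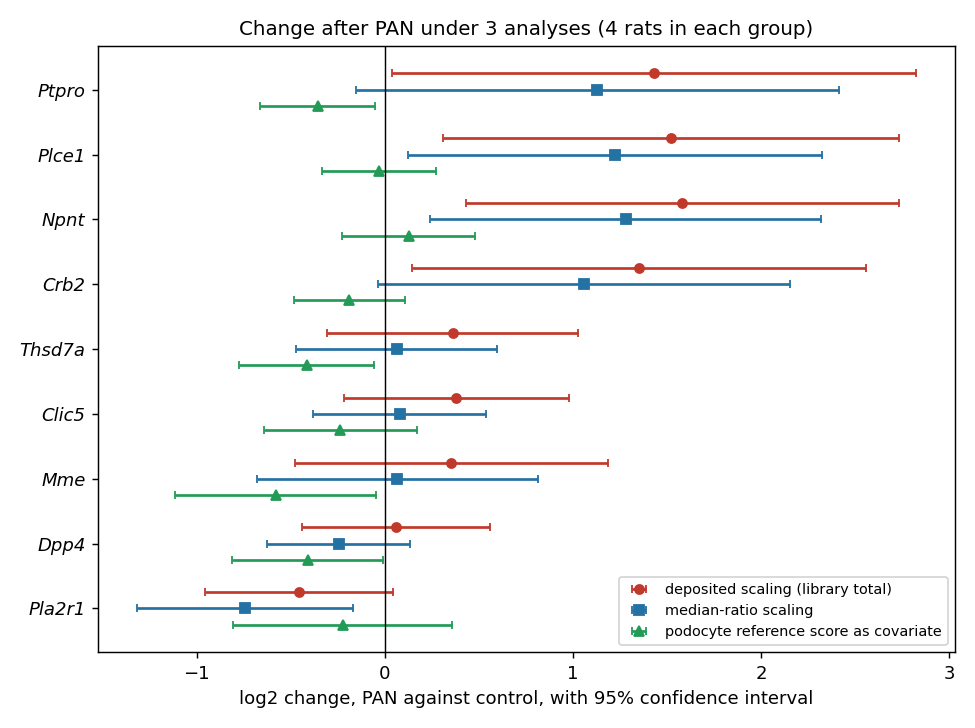
Log2 change between 4 PAN and 4 control rats with its 95% confidence interval, for each gene under the deposited scaling, median-ratio scaling and a fit with the podocyte reference score as a covariate. Npnt changed by 1.58, 1.28 and 0.13 in these fits, and Ptpro by 1.43, 1.13 and -0.36.

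Over the 9 members the median log2 change in PAN was 0.38, beside 0.28 for all genes, and 8 members had a higher mean, beside 83.3% of all genes. After median-ratio scaling the medians were 0.078 and -0.0032, with 7 of 9 members and 49.5% of genes higher. At an unadjusted p under 0.05, 4 members passed, and 42.1% of all genes did. With voom on the recovered reads 0 members and 7.92% of all genes were called, and with the title number of 25 or higher as a covariate 0 members and 2.97%. Groups without overlap were found for 0 members in any of the 6 comparisons. Of all genes 23.3% had such groups between PAN and control, 2.76% and 3.62% between pioglitazone or GQ-16 and PAN, 2.14% between the drugs, and 14.1% and 6.01% between pioglitazone or GQ-16 and control.

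The members were next set beside other podocyte genes. The podocyte reference score is the mean log2(CPM + 1) of 26 podocyte genes that are not members, such as Nphs1, Podxl, Wt1 and Synpo. It was 8.31, 6.21, 6.26 and 7.15 in the control rats, between 8.02 and 8.42 in PAN, between 6.99 and 8.51 with pioglitazone and between 7.19 and 8.85 with GQ-16. Control replicate 1 was thus at the PAN level in the podocyte genes as a whole. The 5 rats with the lowest scores, 3 of them controls, had mitochondrial shares between 18.9% and 39.1%, and the other 11 rats had between 5.83% and 18.0%. That number of rats was chosen after the values were seen, and the part of this difference in the member values was not tested.

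Across 16 rats Crb2 followed the podocyte score most closely, with a Pearson r of 0.988 and a Spearman rho of 0.985. For Npnt r was 0.985, for Plce1 0.985 and for Ptpro 0.976, with rho of 0.976, 0.941 and 0.965. Each of these 8 values had a permutation p of 1e-05, the smallest that 100000 permutations can give, and adjusted p-values of 3.6e-05 for r and 4.5e-05 for rho over 18 relations. With group means subtracted r was 0.985, 0.976, 0.985 and 0.989 for Crb2, Npnt, Plce1 and Ptpro. Without the 2 rats farthest from the median score, control replicates 2 and 3, r remained between 0.963 and 0.987. Score and member share a library and its total, which ties them in part. After median-ratio scaling r was 0.967 or higher for these 4 genes.

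The other members followed the podocyte score less steeply. A rise of 1 in the score went with a rise of 1.34 in Ptpro, 1.25 in Plce1 and Npnt and 1.24 in Crb2, but of 0.65 in Mme, 0.53 in Thsd7a, 0.46 in Clic5 and 0.26 in Dpp4, all on the log2(CPM + 1) scale. Thsd7a had r 0.876 and rho 0.838 (permutation adjusted p 6e-05 and 0.000283), Clic5 0.862 and 0.877 (3.6e-05 and 7.2e-05) and Mme 0.837 and 0.879 (7.71e-05 and 9e-05). Without control replicates 2 and 3 their r was 0.787, 0.778 and 0.903. Dpp4 had r 0.675 and rho 0.721 (permutation adjusted p 0.00909 and 0.00504), and r was 0.656 without those 2 rats but 0.237 after median-ratio scaling. Pla2r1 had a negative r of -0.50 and rho of -0.37, which did not pass (permutation adjusted p 0.0856 and 0.252). Its r was -0.40 without those 2 rats and -0.72 after median-ratio scaling.

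**Figure D3:**
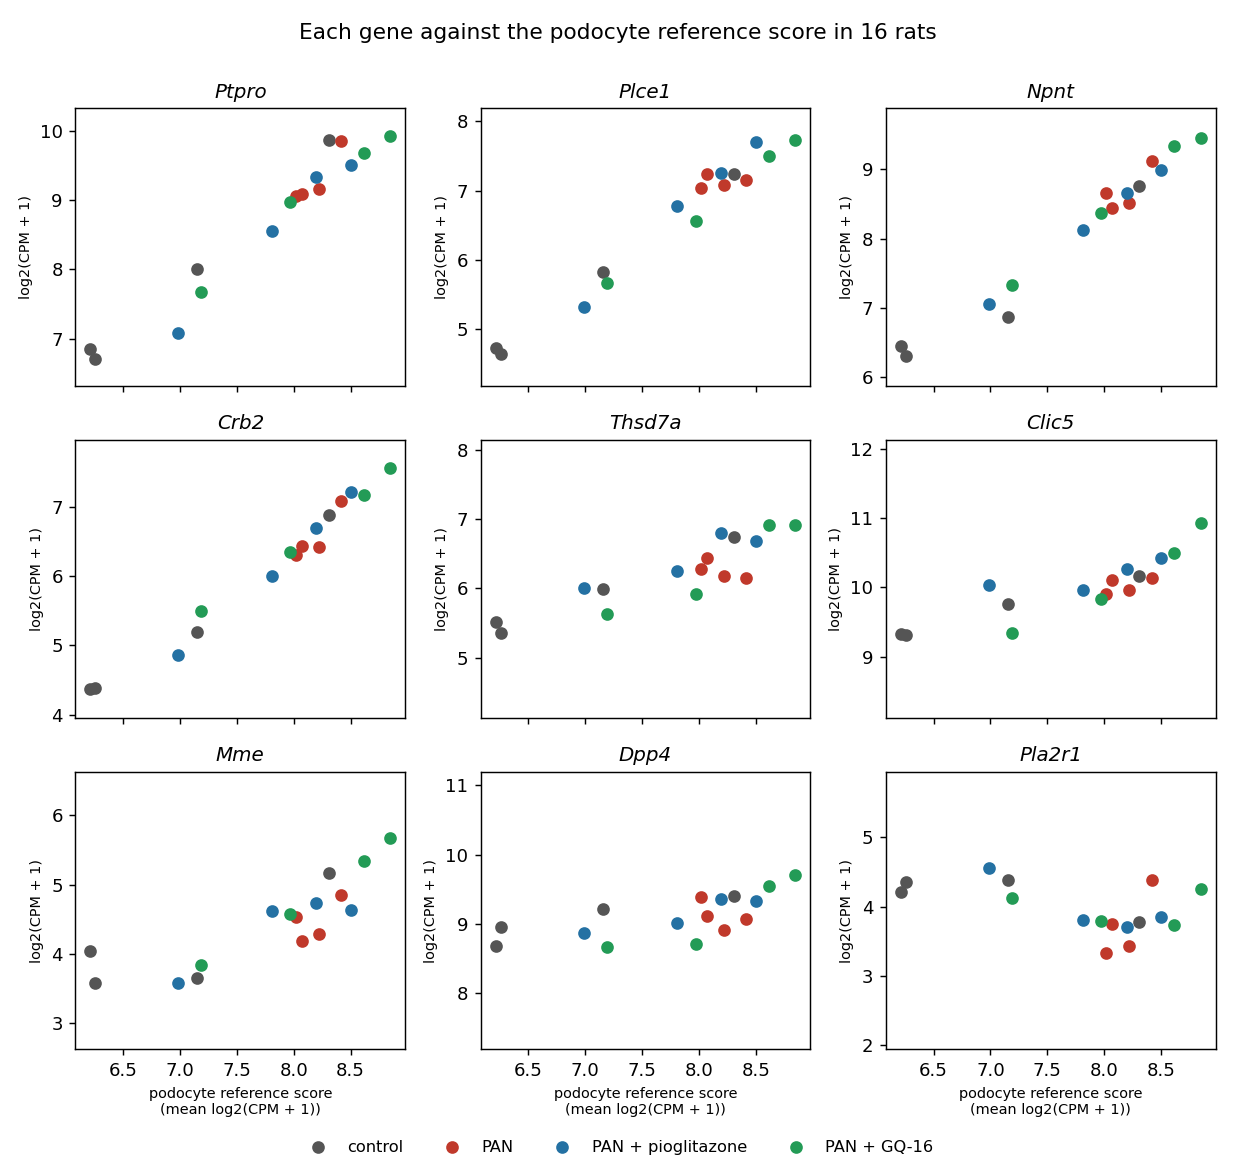
Level of each gene as log2(CPM + 1) against the podocyte reference score in 16 rats, coloured by group, with every vertical axis spanning 4 log2 units. Ptpro, Plce1, Npnt and Crb2 climb by more than 3 log2 units along a line shared by all groups. Dpp4 climbs slightly (slope 0.26) and Pla2r1 leans slightly downward (slope -0.23).

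Taken as a difference from the podocyte score, the spread between rats of a group shrank for 7 members and grew for Dpp4 and Pla2r1. For Ptpro the within-group SD went from 1.06 to 0.38 on the log2 scale, for Plce1 from 0.93 to 0.26, for Crb2 from 0.92 to 0.26 and for Npnt from 0.88 to 0.24. It went from 0.63 to 0.34 for Mme, from 0.50 to 0.32 for Thsd7a and from 0.42 to 0.40 for Clic5. For Dpp4 it rose from 0.35 to 0.48 and for Pla2r1 from 0.36 to 0.91. Because the whole score was subtracted from every gene, these directions follow largely from the slopes above and are no separate result.

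With the podocyte score as a covariate, 0 members and 4.35% of all genes were called in PAN against control. The log2 change of Npnt was then 0.13 (95% CI -0.23 to 0.48, limma adjusted p 0.727) and that of Plce1 -0.030 (95% CI -0.33 to 0.27, limma adjusted p 0.935). Ptpro, Thsd7a, Mme and Dpp4 had changes of -0.36, -0.42, -0.58 and -0.41, each with a 95% CI below 0 but limma adjusted p-values between 0.210 and 0.280. For 7 members this reversed the sign found without the covariate.

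Tubule RNA was set beside the members in the same way. For Mme and Dpp4, which brush borders also carry, r with the proximal tubule score was 0.087 and 0.27 and rho 0.05 and 0.38 (permutation adjusted p for r 0.931 and 0.523, for rho 0.963 and 0.252). Without the 2 rats farthest from the median tubule score, PAN replicates 1 and 4, r was 0.18 and 0.20. Pla2r1 had r -0.51 and rho -0.54 with it (permutation adjusted p 0.0856 and 0.0656), and r was -0.29 without those 2 rats, -0.74 with group means subtracted and -0.18 after median-ratio scaling. The proximal tubule score was between 8.19 and 9.09 in control and between 7.29 and 9.39 in PAN, and 0 of its 21 genes were called. Yet 1 of the 21 was higher in PAN (median -0.38, beside 0.28 for all genes), and 0 were after median-ratio scaling (median -0.69). The part of this difference in the member values was tested only as the covariate above.

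Among all genes with a symbol, those most like each member over the 16 libraries, by the Pearson correlation of log2(CPM + 1), are given as a description. Fzd2, a Wnt receptor, stood nearest to both Ptpro (r 0.986) and Crb2 (r 0.993). Tmod2, a tropomodulin, was nearest to Plce1 (r 0.990) and Ccpg1 to Npnt (r 0.996), followed by Sema3e (r 0.993) and the proprotein convertase Pcsk5 (r 0.990). Podxl, which encodes the podocyte surface sialoprotein podocalyxin, was nearest to Clic5 (r 0.972). The phosphatase gene Ptpn14 was nearest to Thsd7a (r 0.973), the BMP receptor gene Bmpr1b to Mme (r 0.953) and Zfp106 to Dpp4 (r 0.918). Nearest to Pla2r1 were Lipe, encoding hormone-sensitive lipase (r 0.857), and Bcl2l11, encoding the apoptosis regulator BIM (r 0.840). The 6 pairs among Ptpro, Plce1, Npnt and Crb2 had r between 0.969 and 0.986, while Pla2r1 had r between -0.58 and -0.19 with the 8 other members.

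The surrounding gene lists moved as follows in PAN against control, where 21.7% of all genes were called higher and 0.522% lower. After median-ratio scaling 8.63% of all genes were called in either direction. Of the 26 podocyte reference genes 9 rose and 0 fell, with a median change of 1.35, and 5 rose after median-ratio scaling (median 1.05). Rhpn1, a cytoskeletal regulator of podocytes, rose from 511 ± 294 to 1370 ± 203 CPM (SD, n = 4, limma adjusted p 0.0108), the transcription factor Tcf21 by 2.18 log2 units (limma adjusted p 0.0288) and the slit diaphragm protein Kirrel1 by 1.70 (limma adjusted p 0.0390). After median-ratio scaling Tcf21 and Kirrel1 lost their calls (limma adjusted p 0.0618 and 0.0878). Of 40 genes of hereditary nephrotic syndrome with values, 20 rose and 0 fell (median 0.50), and 9 rose and 1 fell after median-ratio scaling. Among them Anln, the actin-binding protein anillin, rose by 2.10 (limma adjusted p 0.000108) and Daam2, a formin, by 1.49 (limma adjusted p 0.0055). The podocyte transcription factor Wt1 rose by 1.52 (limma adjusted p 0.0400), a call lost after median-ratio scaling (limma adjusted p 0.0946). Members are not counted in any list, and lists share some genes.

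Beside Thsd7a and Pla2r1 stand the other antigens of membranous nephropathy. Of 10 with values, 6 rose and 0 fell (median 0.75), and 5 rose after median-ratio scaling (median 0.46). Of all genes 21.7% rose as deposited, and 8.63% were called after median-ratio scaling. Vasn, vasorin, went from 103 ± 91.5 to 314 ± 70.2 CPM (SD, n = 4), with a log2 change of 1.96 (limma adjusted p 0.0207). Sema3b, a semaphorin, rose by 1.34 (limma adjusted p 0.0184), the cadherin Fat1 by 1.15 (limma adjusted p 0.0403) and the adhesion molecule Ncam1 by 1.06 (limma adjusted p 0.0177). After median-ratio scaling Fat1 lost its call (limma adjusted p 0.105).

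Of 10 genes for partners of nephronectin 6 rose and 0 fell (median 0.81), and 3 rose after median-ratio scaling (median 0.55). The shares of all genes were again 21.7% called higher as deposited and 8.63% called after median-ratio scaling. Its integrin chains Itga8 and Itgb1 rose by 1.22 and 1.09 (limma adjusted p 0.0079 and 0.0166), the podocyte integrin chain Itga3 by 1.40 (limma adjusted p 0.0213) and Frem2 by 1.07 (limma adjusted p 0.0193). Frem2 lost its call after median-ratio scaling (limma adjusted p 0.0980). Among 9 other membrane peptidases only Enpep, aminopeptidase A, rose, from 248.6 ± 202 to 1092 ± 384 CPM (SD, n = 4), a log2 change of 2.37 (limma adjusted p 0.00806) and 2.07 after median-ratio scaling. The dipeptidyl peptidase family and its partners had 0 calls among 7 genes. Dpp6 had a log2 change of 1.46 (limma adjusted p 0.132) and Ada, the Dpp4-binding adenosine deaminase, 0.50 (limma adjusted p 0.390).

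The smaller sets around the remaining members had between 1 and 3 calls each, where 21.7% of all genes were called higher. After median-ratio scaling 8.63% of all genes were called in either direction. Of 7 mannose receptor family and secreted phospholipase genes 3 rose, with the Pla2r1 relatives Mrc2 at 1.85 and Mrc1 at 1.62 (limma adjusted p 0.0179 and 0.00486), and 2 did after median-ratio scaling, when Cd302 did not pass. Of 15 crumbs polarity genes 3 rose, led by Pard6g at 1.23 (limma adjusted p 0.0174), and 1 did after median-ratio scaling. Of 9 phospholipase C isozymes 3 rose, led by Plcd3 at 0.85 (limma adjusted p 0.00313), which alone was called after median-ratio scaling. Of 11 CLIC and ezrin complex genes Clic1 rose, by 0.60 (limma adjusted p 0.0113), and 0 did after median-ratio scaling. Of 3 receptor phosphatases related to Ptpro, Ptprq rose by 0.97 (limma adjusted p 0.0486), at a mean of 3.49 CPM in PAN, and lost its call after median-ratio scaling.

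Markers of other cells also differed between PAN and control, where 21.7% of all genes were called higher and 0.522% lower. After median-ratio scaling 8.63% of all genes were called in either direction. Of 8 mesangial genes 7 rose, and the mesangial score was between 4.85 and 6.02 in control and between 6.78 and 7.68 in PAN. Desmin (Des), which injured podocytes also make, rose by 3.25 (limma adjusted p 0.000379). Of 14 leukocyte genes 7 rose, and 0 rose and 1 fell after median-ratio scaling. That score was 5.04 in PAN replicate 1, the PAN rat with the highest Ptpro, Crb2, Npnt, Clic5, Mme and Pla2r1, and between 3.73 and 4.34 in the other PAN rats. Of 9 distal nephron genes 4 fell (3 after median-ratio scaling). Of 9 endothelial genes Plvap was called higher, but only 3 were at higher means (median -0.16, beside 0.28 for all genes). After median-ratio scaling only Plvap was at a higher mean (median -0.47). Of 4 parietal epithelial genes 2 were at higher means. Cd44 was called higher, a call lost after median-ratio scaling (limma adjusted p 0.125). The part of these cells in the member values was not tested.

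Each drug was compared with PAN alone, which asks whether treatment changed these genes in injured glomeruli. With pioglitazone 0 of 9 members and 0% of all genes were called by limma, and 0 members and 3.74% of all genes had an unadjusted p under 0.05. With GQ-16 0 members and 0.0151% of all genes were called, and 0 members and 8.27% of genes had an unadjusted p under 0.05. After median-ratio scaling and by voom on the recovered reads, 0 members and 0% of all genes were called for either drug. The median change of the members was then 0.0087 with pioglitazone and 0.20 with GQ-16 after median-ratio scaling, beside -0.070 and 0.079 as deposited. The medians of all genes were -0.015 and 0.0060 after median-ratio scaling and -0.093 and -0.11 as deposited.

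**Figure D4:**
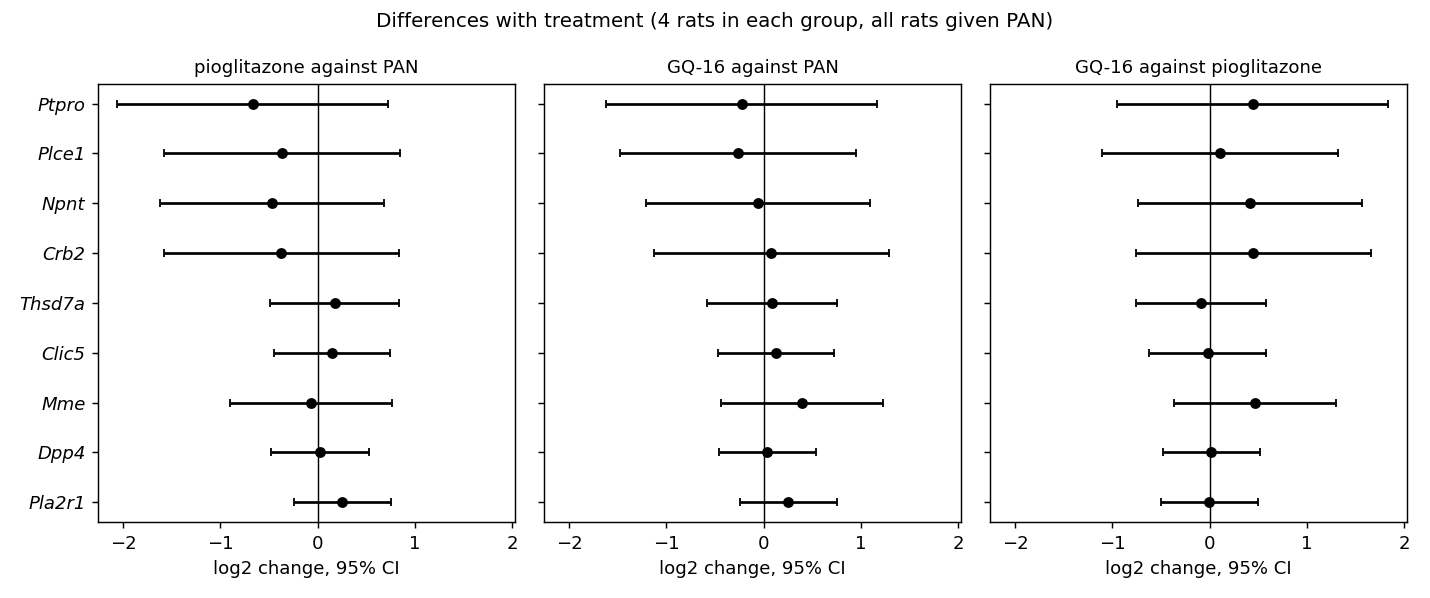
Log2 change with its 95% confidence interval for each gene, for pioglitazone against PAN, GQ-16 against PAN and GQ-16 against pioglitazone, with 4 rats in each group. Every interval spans 0, and those of Ptpro, Plce1, Npnt and Crb2 are the widest.

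The mean of Ptpro was 470.4 ± 270 CPM under pioglitazone, 624 ± 344 CPM under GQ-16 and 642.5 ± 189 CPM in PAN (SD, n = 4). Its log2 changes were -0.67 (95% CI -2.06 to 0.73) and -0.23 (95% CI -1.62 to 1.17), with limma adjusted p-values of 0.916 and 0.957. For Npnt they were -0.47 (95% CI -1.62 to 0.68) and -0.056 (95% CI -1.21 to 1.10), for Plce1 -0.36 and -0.26, and for Crb2 -0.37 and 0.079. Each of these intervals holds both a fall by 1 log2 unit and no change. The tightest were those of Pla2r1, with 0.26 (95% CI -0.24 to 0.76) and 0.25 (95% CI -0.25 to 0.75), and Dpp4, with 0.024 (95% CI -0.48 to 0.52) and 0.04 (95% CI -0.46 to 0.54). After median-ratio scaling Ptpro had -0.59 and -0.099, Npnt -0.39 and 0.071, Pla2r1 0.33 and 0.37, and Dpp4 0.11 and 0.17, so Npnt changed sign with GQ-16. Both comparisons share the 4 PAN rats. Of the 26 podocyte reference genes 2 were at higher means than in PAN with pioglitazone (median -0.30) and 17 with GQ-16 (median 0.029), of 21 proximal tubule genes 2 (median -0.31) and 8 (median -0.038), of 8 mesangial genes 1 and 0 (median -0.51 and -0.67), and of 14 leukocyte genes 0 and 2 (median -0.35 and -0.55), with 0 called. Of 9 endothelial genes 8 were at higher means with pioglitazone (median 0.33) and 4 with GQ-16 (median -0.0065). Of all genes 27.4% and 20.7% were at higher means, and 46.5% and 51.7% after median-ratio scaling. With GQ-16, 15 of 21 proximal tubule genes (median 0.088) and 6 of 9 endothelial genes (median 0.12) were higher under that scaling. The other list medians above kept their sign.

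In the treated groups the same rats were often at the ends of the range. Pioglitazone replicate 1 was the lowest of its group in 7 of 9 members and the highest of all 16 rats in Pla2r1. GQ-16 replicate 2 was the lowest of its group in 8 members, and GQ-16 replicate 4 the highest in 8, of which 7 were the highest of all 16 rats. Their podocyte scores were 6.99, 7.19 and 8.85. For Plce1 the largest value was 1.16 times the smallest in PAN alone, and 5.29 and 4.26 times under the drugs; the difference in spread was not tested.

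GQ-16 was compared directly with pioglitazone on the same day, with doses not given in the labels. None of the 9 members was called, nor was any gene (0% of all genes, and 0 members and 5.94% of genes at an unadjusted p under 0.05, limma). Mme had a log2 difference of 0.47 (95% CI -0.36 to 1.30), Crb2 0.45 (95% CI -0.76 to 1.66), Ptpro 0.44 (95% CI -0.95 to 1.84) and Npnt 0.41 (95% CI -0.74 to 1.57), each higher with GQ-16. Plce1 had 0.10 (95% CI -1.11 to 1.32), and the remaining 4 members were between -0.09 and 0.016. All limma adjusted p-values were 0.999. After median-ratio scaling 0% of genes were called, and Mme had 0.51, Crb2 0.49, Ptpro 0.49, Npnt 0.46 and Plce1 0.15, with limma adjusted p-values between 0.749 and 0.935. The intervals of Dpp4 (-0.48 to 0.52) and Pla2r1 (-0.50 to 0.49) bound a difference between the drugs most closely. Marker lists differed between these groups too, with 0 genes called. With GQ-16, 24 of 26 podocyte reference genes (median 0.33), 20 of 21 proximal tubule genes (median 0.25) and 9 of 9 distal nephron genes (median 0.49) were at higher means, beside 44.8% of all genes, and 0 of 9 endothelial (median -0.30), 1 of 8 mesangial (median -0.48) and 4 of 14 leukocyte genes (median -0.19). The podocyte score was between 6.99 and 8.51 with pioglitazone and between 7.19 and 8.85 with GQ-16, the proximal tubule score between 7.45 and 9.07 and between 7.74 and 8.82. Their part in the member values was not tested.

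Against control, which shows the state reached under treatment, 8 of 9 members had higher log2 means with either drug and Pla2r1 a lower one, and 0 were called. Of all genes 80.4% were higher with pioglitazone and 73.2% with GQ-16. After median-ratio scaling 7 members were higher with either drug, beside 51.8% and 50.7% of all genes. At an unadjusted p under 0.05 0 members and 28.5% of genes passed with pioglitazone, and 3 members and 23.9% with GQ-16. With pioglitazone 4.98% of all genes were called and the member values ran from -0.20 for Pla2r1 to 1.16 for Plce1, with limma adjusted p-values from 0.187 to 0.808. With GQ-16 0.151% of genes were called, and the values ran from -0.21 for Pla2r1 to 1.52 for Npnt (95% CI 0.37 to 2.68), with limma adjusted p-values from 0.131 to 0.800. After median-ratio scaling 2.85% and 0.741% of genes and 0 members were called, with values from -0.41 to 0.94 and from -0.37 to 1.35, and Dpp4 was then below control with both drugs (-0.14 and -0.078). With the podocyte score as a covariate 2.00% of genes were called with pioglitazone, and of the members Ptpro, now lower than in control (-0.57, limma adjusted p 0.0423). Without control replicate 1, Plce1 and Npnt were called with pioglitazone (1.70 and 1.66, limma adjusted p 0.0450 and 0.0351) and Ptpro, Plce1, Npnt and Crb2 with GQ-16 (1.87, 1.80, 2.08 and 1.99, limma adjusted p between 0.0220 and 0.0460), where 12.6% and 11.9% of genes were called. The same 4 control rats enter these comparisons and that of PAN, so their values are not independent. Marker lists differed here as well. With pioglitazone 24 of 26 podocyte reference genes were higher than in control (median 1.04, 2 called), and 25 with GQ-16 (median 1.28, 0 called). After median-ratio scaling 1 of them was called with each drug (median 0.82 and 1.10). Of 8 mesangial genes 6 rose with pioglitazone (median 1.25) and 0 passed with GQ-16 (median 0.75). Of 21 proximal tubule genes 0 were higher with either drug (median -0.74 and -0.45, 0 called), and of 9 distal nephron genes 0 were (median -0.88 and -0.44), with 3 called lower with pioglitazone. Of 9 endothelial genes 8 and 2 were higher (median 0.17 and -0.17, 1 and 0 called), and of 14 leukocyte genes 9 and 8 (median 0.35 and 0.15), with 1 called lower with pioglitazone. After median-ratio scaling 4 and 1 endothelial genes were higher (median -0.048 and -0.35, 0 called), and 9 and 7 leukocyte genes (median 0.15 and -0.017). Their part in the member values was not tested.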

How the data were processed

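Per the submitters' processing notes, HISAT2, featureCounts, Subread, limma and build Rnor_6.0 were used, with no versions or settings. The labels describe stranded poly(A) libraries read as 150 bp pairs. The deposited table holds log2 CPM values. From the values, 0.5 read had been added before scaling to the library total, and undoing this gave whole reads for 100% of values (tolerance 0.05 read). The lowest number of libraries in which any gene of the table had 2 CPM was 8, a sign of an earlier filter, and the 9 members had it in all 16.

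Columns were matched to samples by title, and replicate numbers follow accession order and only name rats. That libraries are separate rats rests on the labels. limma 3.58.1 in R 4.3.3 was fitted to log2(CPM + 1) of all 16 libraries as 4 group means with a variance trend, and p-values were adjusted by Benjamini-Hochberg over 13222 genes. Log2 changes are on this scale, which understates changes of low genes. Tests are two-sided. Permutation tests used scores of the fixed lists. The alternatives were a pseudocount of 0.1, median-ratio scaling, a mean of at least 10 CPM, voom on recovered reads, covariates for the proximal tubule score, the podocyte score and title numbers of 25 or higher, and each rat left out. Named genes are the 9 members, up to 4 called genes of each list by size of change (2 where none was called), and the genes most like each member; the text prints these list genes in part, and some are not reported here. Members and lists were chosen with earlier results of these data known.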

Additional observations from a re-analysis of the deposited data

Results flagged for a closer look

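For each of the 9 members in each of the 4 groups, the rat farthest from the nearest other rat was examined on the log2(CPM + 1) scale. The gap to that neighbour was divided by the range of the 4 rats. In 3 of the 36 groups this share passed Dixon's 95% limit for 4 values, where chance gives about 1.8. PAN replicate 1 stood above the other PAN rats in Ptpro, at 925.5 CPM against 533 to 570.2 (share 0.879), and in Crb2, at 134.9 CPM against 77.7 to 85.3 (share 0.832). Both remained past the limit after median-ratio scaling, with shares of 0.884 and 0.865. Pioglitazone replicate 1 stood below its group in Mme, at 11.03 CPM against 23.5 to 25.7 (share 0.894), and did not pass the limit after median-ratio scaling. Under that scaling 5 of the 36 groups passed, the others being PAN replicate 3 in Plce1 (share 0.955), control replicate 1 in Npnt (0.865) and pioglitazone replicate 1 in Pla2r1 (0.878).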

How the results depend on the processing

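Over 7 alternatives that kept every rat, 324 of the 378 log2 changes (9 members in 6 comparisons) kept their direction and side of the threshold, 48 changed sign, and of those that did not, 4 lost and 2 gained a call. Of the 48, Ptpro with pioglitazone against control gained one under the podocyte score. Members called in PAN against control went from 1 to 0 with median-ratio scaling, voom, the podocyte score or the title number as a covariate, and to 3 with the tubule score (Npnt, Plce1 at 1.69 and Pla2r1). Of all genes 22.3% were called in the deposited scaling, and 8.63%, 7.92%, 4.35%, 2.97% and 25.8% in these 5 alternatives. The call of Npnt was lost at 1.28, 1.30, 0.13 and 1.03 in the first 4 of these. With the podocyte score 1 member, Ptpro, was called with pioglitazone against control, lower at -0.57, where 2.00% of all genes were called. With 1 rat left out, counts ran from 0 to 4 for PAN, 0 to 2 for pioglitazone and 0 to 4 for GQ-16 against control, and stayed at 0 elsewhere. The title number is 25 or higher for 3 of 4 PAN rats and 0 control rats, so the 2 are largely confounded. The podocyte score also differed between control and PAN, with means of 6.98 and 8.18. Causes of these changes were not tested.

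Signs reversed with the podocyte score in PAN against control for Ptpro (-0.36), Plce1 (-0.030), Thsd7a (-0.42), Mme (-0.58), Clic5 (-0.24), Crb2 (-0.19) and Dpp4 (-0.41), in pioglitazone against PAN for Plce1 (0.033), Mme (0.17) and Crb2 (0.025), in GQ-16 against pioglitazone for Plce1 (-0.26), Pla2r1 (0.050) and Dpp4 (-0.093), in pioglitazone against control for Ptpro (-0.57, limma adjusted p 0.0423), Thsd7a (-0.042), Mme (-0.41), Crb2 (-0.17) and Dpp4 (-0.27), and in GQ-16 against control for Ptpro (-0.54), Plce1 (-0.26), Thsd7a (-0.31), Mme (-0.16), Clic5 (-0.097), Pla2r1 (0.022), Crb2 (-0.077) and Dpp4 (-0.36). With the title number they reversed in PAN against control for Clic5 (-0.0049) and Dpp4 (-0.099), in pioglitazone against PAN for Plce1 (0.057), Mme (0.15) and Crb2 (0.12), and in GQ-16 against PAN for Ptpro (0.21), Plce1 (0.16) and Npnt (0.31). With median-ratio scaling they reversed for Dpp4 against control (-0.25 in PAN, -0.14 with pioglitazone, -0.078 with GQ-16), for Mme in pioglitazone against PAN (0.0087), for Npnt in GQ-16 against PAN (0.071), and for Clic5 (0.022) and Pla2r1 (0.036) between the drugs. Voom gave -0.24, -0.14 and -0.085 for Dpp4 against control, 0.031 for Npnt and 0.0036 for Pla2r1. The tubule score gave 0.093 for Pla2r1 and -0.027 for Dpp4 between the drugs.

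With 1 rat left out, signs varied for Dpp4 against control, from -0.069 to 0.17 in PAN, -0.045 to 0.19 with pioglitazone and -0.087 to 0.26 with GQ-16. In pioglitazone against PAN they varied for Plce1 (-0.68 to 0.11), Mme (-0.18 to 0.20), Crb2 (-0.71 to 0.072) and Dpp4 (-0.048 to 0.11). In GQ-16 against PAN they varied for Ptpro (-0.52 to 0.24), Plce1 (-0.55 to 0.14), Thsd7a (-0.11 to 0.32), Clic5 (-0.13 to 0.39), Npnt (-0.33 to 0.38), Crb2 (-0.23 to 0.46) and Dpp4 (-0.14 to 0.20). Between the drugs they varied for Ptpro (-0.069 to 0.91), Plce1 (-0.37 to 0.50), Thsd7a (-0.28 to 0.15), Clic5 (-0.28 to 0.25), Pla2r1 (-0.10 to 0.19) and Dpp4 (-0.17 to 0.18). No paired analysis was possible because the labels give no pairing between groups.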
